A study of Mus musculus with 8 samples.

Results

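The immediate early genes examined here were 10 named genes of the first transcriptional response to growth factors and stress, Fos, Fosb, Fosl1, Fosl2, Jun, Junb, Egr1, Ier2, Ier3 and Dusp1, out of 18193 genes that a probe set with 1 symbol named on the arrays. They were taken by symbol and not by their values, and all of their probe sets with 1 symbol were used, 13 in all. Of these genes 7 had 1 probe set, and Fosl1, Fosl2 and Jun had 2 each. All 10 genes passed the filter on low levels, and so did 12 of the 13 probe sets.

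The series compared 4 Affymetrix arrays labelled Bmi1 with 4 arrays labelled control, numbered 1 to 4 in each group. Both groups were Ink4a-Arf-null hepatoblasts, fetal liver precursors of hepatocytes and bile duct cells, isolated by magnetic sorting on Dlk at embryonic day 14.5. They were transduced with Bmi1 or, as the control, EGFP, grown with 50 ng/ml HGF and 20 ng/ml EGF, and purified by flow cytometry on day 28 of culture before RNA equal to 10000 cells was amplified. The series describes 4 independent experiments, and the labels give the same replicate numbers to both groups. The sources used here do not name the vector, its promoter or the number of embryos. The Ink4a-Arf deletion is shared by both groups, so a response that needs that locus is not covered.

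Immediate early genes are switched on within minutes of a stimulus, without new protein synthesis, by kinases that activate factors already bound to their promoters. Fos and Jun family proteins pair to form the AP-1 transcription factor, Egr1 is a zinc finger factor, and Dusp1 and Ier3 act back on the MAP kinases that induce them. In the liver the family is best known from the first hours after partial removal of the organ, when hepatocytes enter the cell cycle, and HGF and EGF receptors signal through the same kinases.

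Promoter windows, 250 bases before to 50 after the annotated start, were used for 7 of the 10 members, from RefSeq (GRCm38.p6). Members' windows on a chromosome set aside beforehand were not used, though the shares of all windows below include it. Fosl1, Egr1 and Ier2 have no window here. The windows of Fosb and Fosl2 are shown because these were the members that differed between sets of replicates, and that of Dusp1 because it had the lowest p between the groups. Capitals mark matches on either strand to the CArG box bound by serum response factor, the cyclic AMP response element TGACGTCA, the AP-1 site TGANTCA, the TATA box TATAAA and the GC box GGGCGG, all written 5′ to 3′ on the gene's strand. The Fosb window lies at chr7:19309996-19310295 on the minus strand, that of Fosl2 at chr5:32136222-32136521 on the plus strand, and that of Dusp1 at chr17:26508423-26508722 on the minus strand.
Fosb: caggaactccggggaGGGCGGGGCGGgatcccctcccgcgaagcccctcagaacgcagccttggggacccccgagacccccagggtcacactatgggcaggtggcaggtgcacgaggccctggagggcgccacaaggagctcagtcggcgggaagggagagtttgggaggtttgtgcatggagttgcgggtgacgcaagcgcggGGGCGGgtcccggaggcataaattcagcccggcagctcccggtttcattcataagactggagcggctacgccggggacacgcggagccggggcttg
Fosl2: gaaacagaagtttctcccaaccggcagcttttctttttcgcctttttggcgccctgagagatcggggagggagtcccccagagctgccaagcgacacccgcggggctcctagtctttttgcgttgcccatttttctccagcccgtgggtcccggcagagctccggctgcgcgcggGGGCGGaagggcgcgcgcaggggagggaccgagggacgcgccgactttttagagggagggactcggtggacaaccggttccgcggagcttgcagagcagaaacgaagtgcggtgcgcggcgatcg
Dusp1: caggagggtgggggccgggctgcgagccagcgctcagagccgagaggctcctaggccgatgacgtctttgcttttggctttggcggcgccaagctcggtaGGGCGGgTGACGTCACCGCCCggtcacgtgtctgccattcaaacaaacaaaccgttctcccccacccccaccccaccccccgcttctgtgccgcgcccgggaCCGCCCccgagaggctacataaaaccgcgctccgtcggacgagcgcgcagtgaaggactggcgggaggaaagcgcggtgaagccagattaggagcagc
In the Dusp1 window the cyclic AMP response element begins at position -143 from the start, between a GC box at -150 and one on the opposite strand at -135. It was the only one of the 7 windows with that element, which 1.79% of all 32851 promoter windows hold. The Fosb window has 3 GC boxes, of which those at -235 and -230 share a base, and the Fosl2 window has 1, at -75. GC boxes were present in 6 of the 7 windows, against 35.7% of all windows. The CArG box and the AP-1 site were found in 0 of the 7, against 1.63% and 7.81% of all windows, which says only that these letters are not in these 300 bases. Egr1, Fosl1 and Ier2 were not searched, so the 0 does not cover them. The TATA box letters were present in 2 of the 7, Fos and Junb, against 13.6% of all windows. The Fos match begins at -33, but the Junb match begins at position 1, the annotated start itself. Apart from that pair of Fosb boxes no matches overlapped in the windows shown. A match describes the sequence and is not a bound site.

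Values are array intensities on a linear scale, each array scaled by the authors to a mean of 100 after trimming 2% at each end. Levels of different probe sets are not comparable. The Dlk-positive hepatoblast label was matched by Dlk1, Alb and Afp, all read well above background on every array. Bmi1, the introduced gene, read 318, 273, 328 and 197 in arrays labelled Bmi1 and 802, 395, 568 and 306 in arrays labelled control, so its signal was lower where the label names it, at -0.89 on the log2 scale (SE 0.32, limma adjusted p = 0.461, and 0.0248 with the replicate number as a block). Groups are therefore called by their labels, and each direction below holds only as far as the labels do. Where the probes lie on the introduced transcript was not looked at here. Replicates 1 and 2 stood apart from replicates 3 and 4 in both groups, with a BioC hybridisation control of 97.0 to 119 in replicates 3 and 4 and 198 to 274 in replicates 1 and 2. Control 1 had a Gapdh 3' over 5' ratio of 3.10, against 1.65 to 1.96 on the other arrays.

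None of the 10 immediate early genes passed the test between arrays labelled Bmi1 and arrays labelled control. Without a replicate block, the intervals of the 10 leave room for folds between 0.339 and 1.83. The count was 0 of 10, in limma with Benjamini-Hochberg adjustment over all 10916 tested genes and a threshold of 0.05, where 0.165% of tested genes passed. An unadjusted p under 0.05 was reached by 0 of 10 members and 7.81% of tested genes. With the replicate number as a block the count after adjustment was again 0 of 10, where 3.33% of tested genes passed. The 95% intervals with the block lay between -1.08 (lower end, Fosb) and 0.53 (upper end, Junb) on the log2 scale. Those of Dusp1 (-0.51 to -0.11) and Ier3 (-0.41 to -0.0063) lay below 0 before adjustment for the number of genes. The difference lay between -0.46 (Fosb) and 0.16 (Junb) on the log2 scale. For 7 genes it was below 0, as for 54.3% of all tested genes, and the median over the members was -0.17, against -0.03 over all tested genes. The groups overlapped for every member, whereas they did not for 5.33% of all tested genes. In these bulk samples fewer responding cells and less RNA per cell cannot be told apart.

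**Figure D1:**
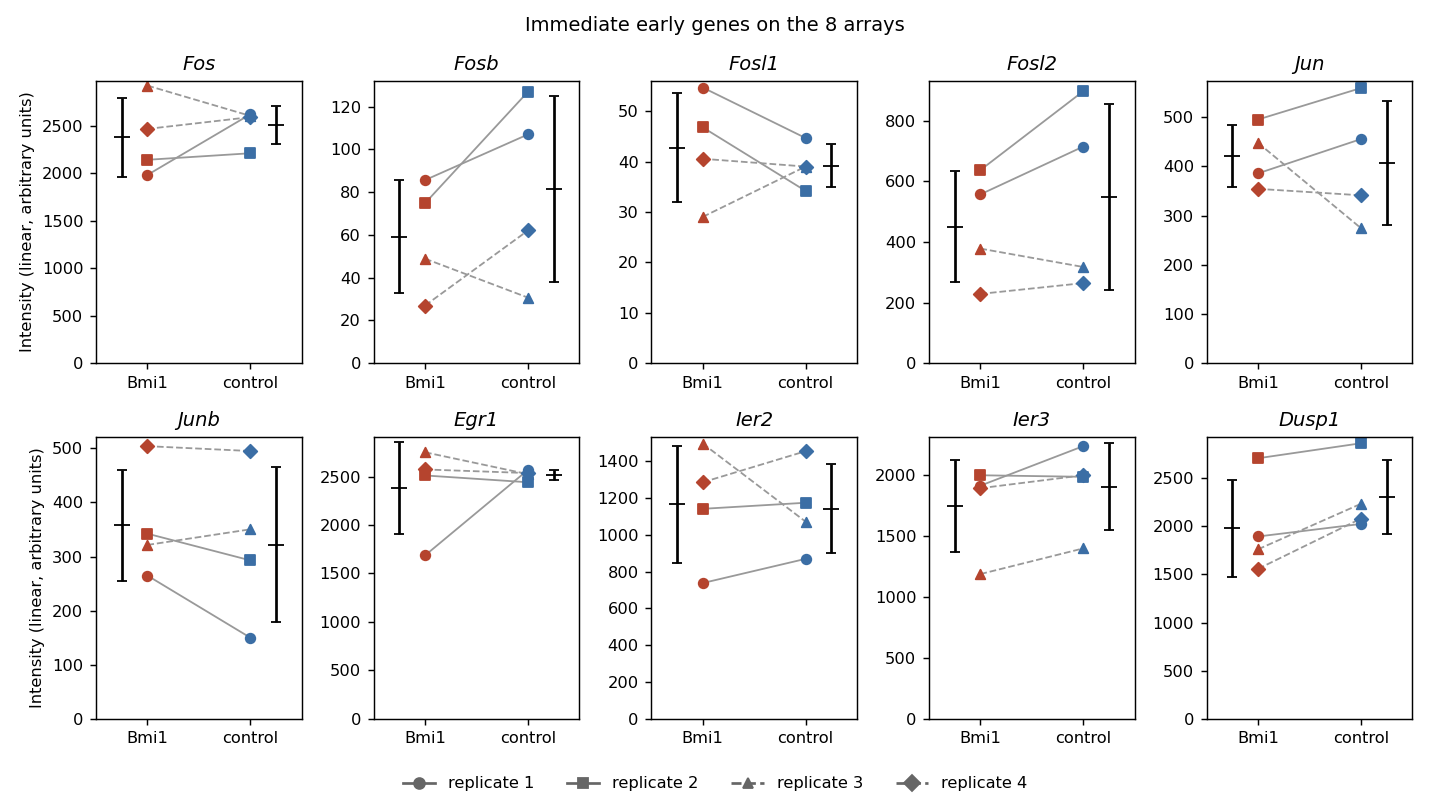
Probe set intensity (linear, arbitrary units, axes from 0) of each of the 10 genes, with the arrays labelled Bmi1 left of those labelled control and a line joining arrays of the same replicate number (solid for 1 and 2, dashed for 3 and 4). Black bars are the mean ± SD of 4 arrays; the groups overlap in all 10 panels, and for Fosb and Fosl2 the solid lines lie above the dashed ones.

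Fos, the founding AP-1 subunit, read 1981, 2140.4, 2922 and 2466 in arrays labelled Bmi1 and 2619.6, 2209, 2603 and 2589.9 in arrays labelled control. The arrays labelled Bmi1 held both the 2 lowest values and the highest. They averaged 2377 ± 415, against 2505 ± 198 in arrays labelled control (SD, n = 4 each). On the log2 scale that was -0.16 (SE 0.12, limma adjusted p = 0.912). The 95% interval ran from 0.737-fold to 1.08-fold. Fos was among the steadier genes of the arrays, with an SD over all 8 arrays of 0.18 on the log2 scale, a spread that 10.3% of tested genes did not exceed.

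Fosb, a related subunit that is scarce in unstimulated cells, read 85.7, 74.8, 48.9 and 26.9 in arrays labelled Bmi1 and 107, 127, 30.6 and 62.1 in arrays labelled control. In both groups replicates 1 and 2 were above replicates 3 and 4. The log2 difference between the groups was -0.46 (SE 0.49, limma adjusted p = 0.949), with an interval from 0.339-fold to 1.57-fold. Leaving out 1 array moved it between -0.85, without control 3, and -0.14, without Bmi1 4. It was lower in pairs 1, 2 and 4 and higher in pair 3.

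Fosl1, known as Fra-1, read 54.7, 46.8, 29.0 and 40.6 in arrays labelled Bmi1 and 44.7, 34.2, 39.0 and 39.0 in arrays labelled control. The control arrays lay inside the range of the others, and the log2 difference was 0.01 (SE 0.25, limma adjusted p = 0.997). Its other probe set was under the level filter and at background on 3 of 4 arrays labelled Bmi1 and on 4 of 4 labelled control, so no fold is given for it. As the background of an array served the level that 95% of its 27 Bacillus control probe sets did not exceed, 4.09 to 9.97.

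Fosl2, known as Fra-2, read 557, 637, 378 and 229 at its brighter probe set in arrays labelled Bmi1 and 715, 898, 317 and 264 in arrays labelled control. As for Fosb, replicates 1 and 2 were the higher ones in both groups. The difference between the groups was -0.28 on the log2 scale (SE 0.47, limma adjusted p = 0.976). The replicate block reduced the SE to 0.14, with an adjusted p of 0.365. The other Fosl2 probe set gave 33.3 ± 9.34 in arrays labelled Bmi1 and 27.8 ± 6.41 in arrays labelled control (SD, n = 4 each). With every probe set tested by itself, where 0.0214% passed, this was 0.16 on the log2 scale (SE 0.27, limma adjusted p = 0.9997), so the probe sets differed in sign and neither passed.

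Jun, the main partner of Fos, read 386, 495, 448 and 354 in arrays labelled Bmi1 and 456, 559, 274 and 341 in arrays labelled control. Jun averaged 421 ± 63.1 in arrays labelled Bmi1 and 408 ± 126 in arrays labelled control (SD, n = 4 each), 0.01 apart on the log2 scale (SE 0.25, limma adjusted p = 0.997). This mean joined pairs of opposite sign, since the array labelled Bmi1 had less Jun in pairs 1 and 2 (-0.33 and -0.26) and more in pairs 3 and 4 (0.61 and 0.02). The other Jun probe set had the same signs, -0.34, -0.05, 0.65 and 0.16 in pairs 1 to 4. The interaction of group with replicates 1 and 2 against 3 and 4 did not pass for Jun (limma adjusted p = 0.9995, unadjusted p = 0.073).

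Junb, a Jun paralog that often restrains its activity, read 265, 342, 321 and 504 in arrays labelled Bmi1 and 149.8, 293, 350.3 and 495 in arrays labelled control. The lowest value belonged to control 1 and the highest values to both replicates 4. The log2 difference of 0.16 (SE 0.32, limma adjusted p = 0.983) turned to -0.13 without control 1 and to -0.0071 without Bmi1 4. For all 10 members the interaction just named gave 0 of 10 calls, with 0 of 10 at an unadjusted p under 0.05, where 0% of tested genes passed after adjustment and 2.76% before.

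Egr1, a zinc finger factor that growth factors induce through ERK, read 1686, 2511, 2751 and 2573 in arrays labelled Bmi1 and 2569, 2441, 2525 and 2536 in arrays labelled control. The 4 control arrays were within a narrow range, and the first array labelled Bmi1 lay below it. Egr1 averaged 2380.3 ± 474 in arrays labelled Bmi1 and 2518 ± 54.4 in arrays labelled control (SD, n = 4 each). The log2 difference was -0.18 (SE 0.14, limma adjusted p = 0.912) and moved to -0.04 without Bmi1 1 (adjusted p = 0.953). Bmi1 1 also had the lowest Fos and Ier2 of the 8 arrays.

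Ier2, a nuclear regulator induced alongside Fos, read 738, 1142, 1497 and 1287 in arrays labelled Bmi1 and 869.8, 1175, 1072 and 1456 in arrays labelled control. Replicate 1 was lowest in both groups. The difference was -0.07 on the log2 scale (SE 0.21, limma adjusted p = 0.985), and its sign turned with each other scaling of the arrays.

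**Figure D2:**
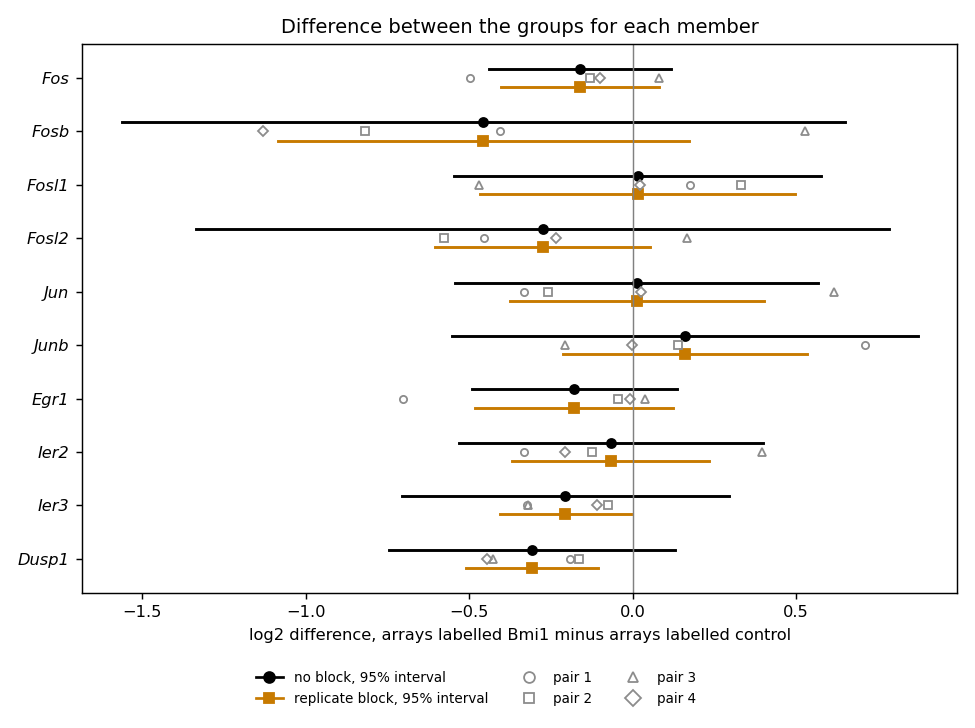
Log2 difference, arrays labelled Bmi1 minus arrays labelled control, for the 10 genes, with the 95% interval of the limma model without a block (black circles) and with the replicate block (orange squares) and the 4 pair differences as open symbols. All 10 intervals without the block include 0, and with the block those of Ier3 and Dusp1 lie below 0 before adjustment for the number of genes.

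Dusp1 and Ier3, both of which act back on MAP kinases, read below their control, on centred log2 values, in 4 of 4 pairs. Such agreement of the 4 pairs in either direction was seen for 2 of 10 members and for 27.2% of all tested genes. Dusp1, the phosphatase that inactivates p38, JNK and ERK, read 1895, 2709, 1762 and 1558 in arrays labelled Bmi1 and 2026, 2865, 2235 and 2081 in arrays labelled control. Replicate 2 was the highest of each group, and the groups overlapped. The log2 difference was -0.31 (SE 0.19, limma adjusted p = 0.850), and the pairs gave -0.19, -0.17, -0.43 and -0.45. With the replicate block the SE was 0.09, the unadjusted p 0.0080 and the adjusted p 0.111.

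Ier3, a stress-induced survival factor that prolongs ERK signalling, read 1909, 1994, 1184 and 1888 in arrays labelled Bmi1 and 2233, 1981, 1395 and 1994 in arrays labelled control. Replicate 3 was lowest in both groups. Its difference was -0.21 (SE 0.22, limma adjusted p = 0.949), with an unadjusted p of 0.0447 and an adjusted p of 0.264 in the model with the replicate block. Without Bmi1 3 the difference was -0.01, and without control 3 it was -0.36. An unadjusted p under 0.05 with the block was reached by 2 of 10 members and by 18.0% of all tested genes.

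The variation of each member over the 8 arrays was divided between the replicate number, the group and a remainder. Of 7 degrees of freedom the number has 3 and the group 1, so a larger share for the number is partly set by the design. The number took a median of 72.6% of each tested member's sum of squares over the 8 arrays and the group 6.38%, against 65.4% and 8.45% over all tested genes. The share of the number was above that of the group for 9 of the 10 members and for 85.8% of all tested genes. The remaining member was Egr1, with 19.1% for the number and 20.8% for the group. For Fosl2 the number took 92.5% and for Ier3 87.4%.

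**Figure D3:**
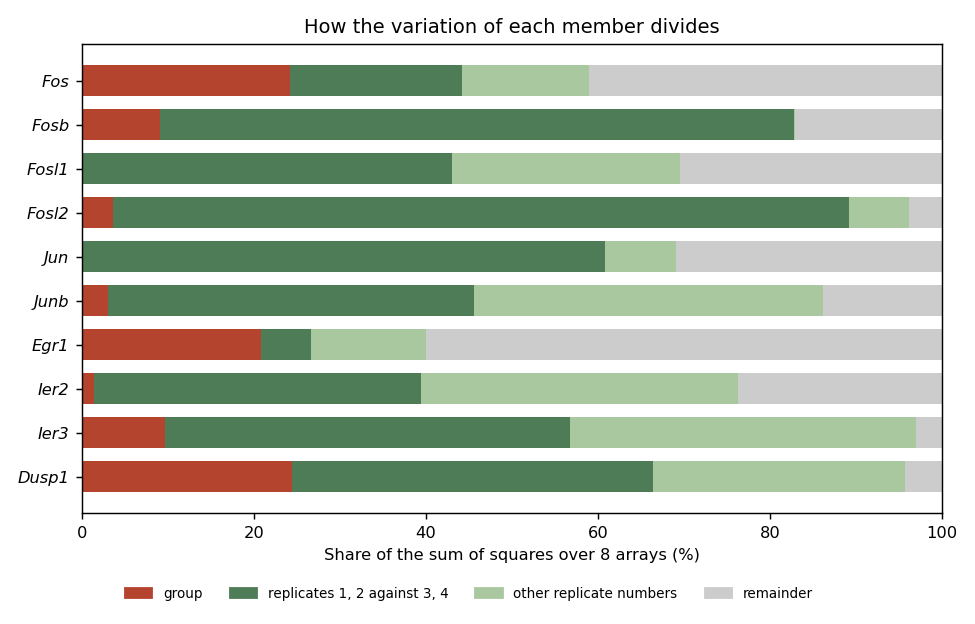
Share of each gene's sum of squares over 8 arrays (%, centred log2 values) that fell to the group, to the contrast of replicates 1 and 2 with 3 and 4, to the other differences between replicate numbers, and to the remainder. The group share was highest for Dusp1 at 24.4% and lowest for Jun at 0.0311%, and the replicate contrast took 85.6% for Fosl2 and 73.7% for Fosb.

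Between replicates 3 and 4 and replicates 1 and 2, compared over both groups after the values had been seen, Fosb and Fosl2 were called and the other 8 members did not pass. That made 2 of 10, both lower in replicates 3 and 4, where 24.3% of all tested genes passed, 12.1% higher and 12.2% lower, so the members' share was not above that of the arrays as a whole. Here and below, this contrast counted the 8 arrays as separate, although same-numbered arrays were taken as pairs. It sets only 2 replicate numbers against 2, so its limma p-values and calls overstate the evidence and serve as description. Fosb read 26.9 to 62.1 in replicates 3 and 4 and 74.8 to 127 in replicates 1 and 2, with no overlap between the sets. Its log2 difference was -1.30 (SE 0.25, limma adjusted p = 0.0085). Fosl2 read 229 to 378 in replicates 3 and 4 and 557 to 898 in replicates 1 and 2, again without overlap. On the log2 scale this was -1.33 (SE 0.19, limma adjusted p = 0.0036). On centred values the sets did not overlap for 3 of 10 members, with Ier3 the other one, and for 25.2% of tested genes. The other Fosl2 probe set differed by -0.22 (SE 0.26, limma adjusted p = 0.759 with every probe set tested by itself, where 27.3% passed), so the fall was seen at 1 of the 2 Fosl2 probe sets.

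Both calls held under each scaling and without any single array, with limma adjusted p up to 0.0287 for Fosb and 0.0150 for Fosl2. Single arrays decided whether others passed: Jun was called lower without Bmi1 1 (adjusted p = 0.0404) or Bmi1 3 (0.0383) at its brighter probe set, Ier3 without Bmi1 4 (0.0322) and Dusp1 without control 1 (0.0227). The other Jun probe set differed by 0.07 between the sets (adjusted p = 0.585 in the test of every probe set). Scaling mattered as well. Using the median of all probe sets as the centre, which moved the median of all tested genes to 0.53, put Fos, Junb, Egr1 and Ier2 among genes higher in replicates 3 and 4, and quantile normalisation put Ier3 and Dusp1 among the lower ones. The labels do not say what sets these replicates apart.

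Summed levels of cell type markers also moved with this contrast. The summed intensity of 11 fibroblast and stellate markers was 3783 to 6419 in replicates 3 and 4 and 4876 to 17169 in replicates 1 and 2, and 4 of the 11 were called lower in replicates 3 and 4 by limma, where 12.2% of all tested genes were. The summed intensity of 11 hepatocyte and hepatoblast markers was 32608 to 38375 in replicates 3 and 4 and 23602 to 28080 in replicates 1 and 2, with 7 called higher, where 12.1% of all tested genes were, and 1 lower. Between the groups the fibroblast and stellate sum was 3783 to 9083 in arrays labelled Bmi1 and 5463 to 17169 in arrays labelled control. Of the 11 tested markers 11 were below 0 in log2 difference. In limma 0 were called without the block (1 at an unadjusted p under 0.05) and 1, Acta2, with it. Thy1, under the level filter and not tested, went the other way. It averaged 23.9 in arrays labelled Bmi1 and 9.97 in arrays labelled control, above background on 6 arrays. With the block 1.96% of all tested genes were called lower and 1.36% higher. The hepatocyte and hepatoblast sum was 23602 to 36160 in arrays labelled Bmi1 and 26285 to 38375 in arrays labelled control. Of these 11 markers 9 were below 0 in log2 difference, and 0 were called with or without the block. Without the block 3 were lower and 0 higher at an unadjusted limma p under 0.05, where 7.81% of all tested genes were. In 4 of 4 pairs 5 were lower and 1 higher, where 27.2% of all tested genes agreed in either direction. Biliary markers summed to 4171 to 4569 in arrays labelled Bmi1 and 2316 to 3639 in arrays labelled control, and 2 of 6 tested, Epcam and Cdh1, rose with the block. Of the 6, 5 had a log2 difference above 0 and 1 below. With the block 3 were higher and 1 lower at an unadjusted limma p under 0.05. Mesothelial markers summed to 47.3 to 191 in arrays labelled Bmi1 and 125 to 371 in arrays labelled control, with 4 of 4 below 0 and Msln called with the block. The endothelial list had 2 of 10 genes above the level filter, summing to 287 to 399 in arrays labelled Bmi1 and 99.3 to 215 in arrays labelled control, and 1 of them, Egfl7, rose with the block. Of the other 8, Kdr was above background on 8 arrays, Stab2 on 7, Lyve1 on 4, Cdh5 and Emcn on 2 each, and Pecam1, Tek and Tie1 on 0. These were not tested and their directions were mixed. Mean Kdr was 13.2 in arrays labelled Bmi1 and 21.3 in arrays labelled control, and Cdh5 (3.08 and 6.25) and Emcn (5.06 and 6.75) were also lower. Stab2 (10.9 and 6.95) and Lyve1 (7.57 and 2.63) were higher. The 4 tested of 9 macrophage and leukocyte markers summed to 659 to 2456 in arrays labelled Bmi1 and 476 to 2789 in arrays labelled control, and 0 passed in limma (0 at an unadjusted p under 0.05). Of the other 5, Lyz2 was above background on 8 arrays, Fcer1g on 6, Tyrobp on 3, and Ptprc and Itgam on 1 each. Of the erythroid markers Epor alone was tested and did not pass after adjustment, Klf1 was above background on 8 arrays, Hba-a1 on 4, Slc4a1 on 1 and Alas2 on 0. The part of these markers in the members' values was not tested.

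**Figure D4:**
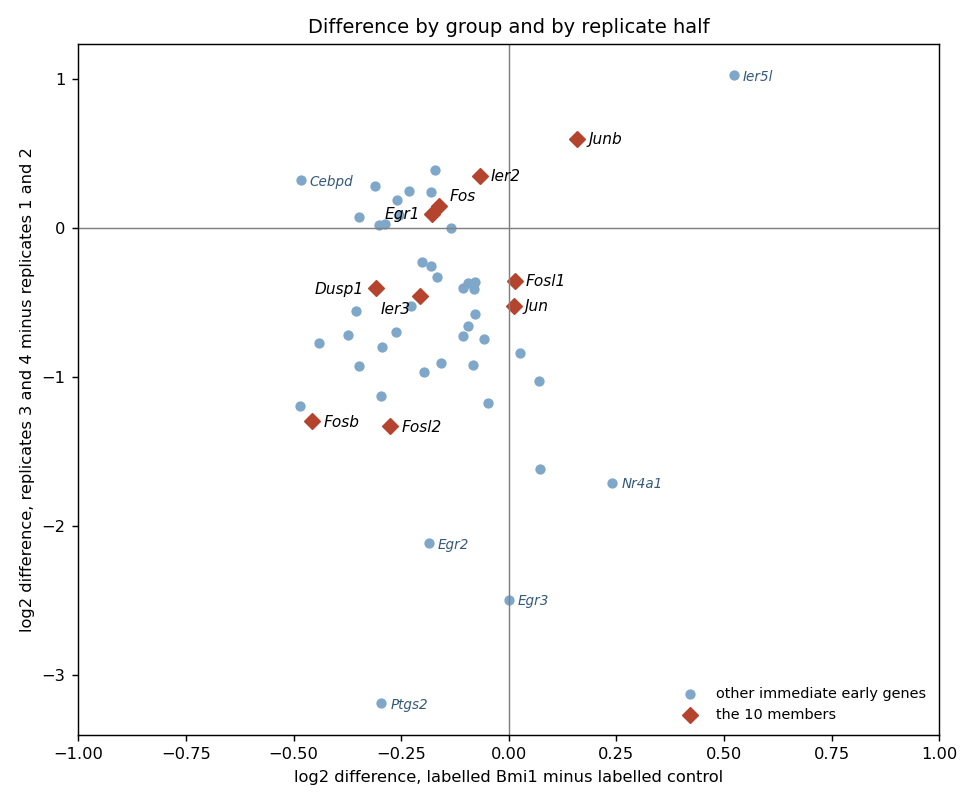
Log2 difference between the groups (x axis, arrays labelled Bmi1 minus arrays labelled control) and between replicates 3 and 4 and replicates 1 and 2 (y axis) for the 10 members (red diamonds) and 43 other immediate early genes (blue circles). The points spread over -0.49 to 0.52 along the x axis and -3.19 to 1.02 along the y axis.

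Among 43 other tested immediate early genes 37 had a difference below 0, as did 54.3% of all tested genes. Their median was -0.18 on the log2 scale, against -0.03 over all tested genes. In limma 0 passed without the block (1 at an unadjusted p under 0.05). With the block 12 were lower and 1 higher at an unadjusted p under 0.05, which 18.0% of all tested genes reached in either direction. In 4 of 4 pairs 16 were lower and 1 higher, where 27.2% of all tested genes agreed in either direction. With the replicate block, where 1.96% of tested genes were called lower, 1 fell, Cebpd, a C/EBP factor of the acute phase response, at 435 ± 135 in arrays labelled Bmi1 and 580.4 ± 188 in arrays labelled control (SD, n = 4 each). Its log2 difference was -0.48, with a limma adjusted p of 0.741, or 0.0476 with the block. It was lower in 4 of 4 pairs, and no other scaling kept that call. How many genes of the list were lower depended on the scaling, 27 of 43 when all probe sets set the centre, and the list's median stayed below that of all genes under each, at -0.05 against 0.11 there.

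The same list differed more by replicate, in the contrast that counted same-numbered arrays as separate. In replicates 3 and 4 limma called 22 of the 43 lower and 2 higher than in replicates 1 and 2, where 12.2% of all tested genes were lower and 12.1% higher. With all probe sets as the centre it was 6 lower and 11 higher, where 3.26% of all tested genes were lower and 48.1% higher. Chosen after their values were seen, Ptgs2, the inducible prostaglandin synthase, read 6.95 to 21.2 in replicates 3 and 4 and 78.6 to 244 in replicates 1 and 2, a log2 difference of -3.19 (limma adjusted p = 0.0027). Egr3 (-2.50, limma adjusted p = 0.0116), Egr2 (-2.11, 0.0064) and the orphan receptor gene Nr4a1 (-1.71, 0.00034) were lower too. Egr1 did not pass in this contrast, with 2525 to 2751 in replicates 3 and 4 and 1686 to 2569 in replicates 1 and 2 (0.09 on the log2 scale, limma adjusted p = 0.616), though the difference between Egr1 and its paralogs was not tested.

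Of 11 tested AP-1 partners beyond the members, 7 had a difference below 0 and 0 passed without the block (0 at an unadjusted p under 0.05). Maf, a large bZIP factor, read 354, 375, 93.0 and 74.7 in arrays labelled Bmi1 and 745, 546, 155 and 120.4 in arrays labelled control, lower in each pair. It fell with the replicate block (log2 difference -0.82, SE 0.13, limma adjusted p = 0.0209, and 0.943 without), and with centring on all probe sets this call was lost.

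Upstream of the members, 0 of 12 SRF, ternary complex and CREB factors passed in limma with or without the block, and 0 had an unadjusted p under 0.05 in either. The coactivator gene Mrtfb (-0.27) and the ternary complex factor gene Elk3 (0.21) had the smallest p. Of 15 tested genes of the MAP kinase cascade 0 passed, again with 0 before adjustment, among them the adaptor gene Grb2 (-0.29) and Nras (-0.20). Receptors for HGF and EGF and their ligands gave 0 of 8 (0 unadjusted, 2 with the block), with Erbb2 at 0.29 and the ligand gene Ereg at -0.90 on the log2 scale.

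Downstream, 0 of 15 genes listed as feedback regulators of ERK passed in limma. At an unadjusted limma p under 0.05 were 2, where 7.81% of all tested genes were, and 5 with the block, where 18.0% were. The 5 were Dusp8, Dusp10, Spred2, Errfi1 and the member Ier3, which, as described above, prolongs ERK signalling and is no inhibitor of it. Errfi1, which blocks the EGF receptor, read 3716 ± 642 in arrays labelled Bmi1 and 4322 ± 386 in arrays labelled control (SD, n = 4 each, log2 difference -0.30, limma adjusted p = 0.596), and Dusp8, a JNK phosphatase gene, differed by -0.88 (adjusted p = 0.622). Errfi1 also counts among the 43 genes above. Of 12 known AP-1 targets, among them the member Fosl1, 1 rose with the block, where 1.36% of tested genes were called higher, the cyclin gene Ccnd1, at 1164, 1283, 2245 and 1588 in arrays labelled Bmi1 and 532, 574, 956 and 881 in arrays labelled control. Its log2 difference was 1.02, it was higher in 4 of 4 pairs, and the limma adjusted p was 0.0061 in the blocked model and 0.156 otherwise. Of 11 heat shock genes 0 passed in limma (0 unadjusted, 1 with the block), with Hspb1 at 0.49 (adjusted p = 0.719) and the chaperonin gene Hspd1 at -0.17 (adjusted p = 0.796).

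Genes with the pattern most like the members over the 8 arrays were described by correlation, with no test, since the arrays share replicate numbers and the contrast above. The mean of the 10 members was followed by Rfk (r = 0.98), Ccdc32 (0.98), Cybc1 (0.97), Pigc (0.97) and Rmdn3 (0.96). For Fos the nearest were Cfl1 (0.97), Vcp (0.96), Eif4a1 (0.95), Jtb (0.94) and Ep400 (0.93). For Jun they were Vgll4 (0.98), Ptgis, Pik3ip1, Lrrc47 and Tmem175 (0.95 each), and for Egr1 Stx3 (0.95), Gm5802 (0.92), Bloc1s6, Col4a2 (0.91 each) and Setd5 (0.90). Among the members themselves Fosb and Fosl2 (0.90) and Fosl2 and Jun (0.86) were most alike, and Fosl1 and Ier2 least (-0.86).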

How the data were processed

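Intensities of 45101 probe sets on 8 arrays were analysed as deposited. They are linear and were scaled per array by the authors, as the equal trimmed means show. No source used here names the software. Symbols came from the platform annotation and were updated through gene identifiers with RefSeq: 34945 probe sets had 1 symbol, 932 several and 9160 none here, beside 64 control probe sets.

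Probe set values plus 3.78 (their median divided by 4) were put on the log2 scale, which understates folds of dim genes. The brightest probe set stood for a gene. Of these genes 10916 reached the 40th percentile of mean level and were tested, after each array was centred on their median. Two-sided moderated tests in limma 3.58.1 under R 4.3.3 (lmFit, then eBayes with its trend option) compared the groups and were first tested on simulated data. There a true log2 difference of 1 was recovered in 28% of cases without the block and 9% with it. For a true difference of 2 it was 76% and 58%. A real difference of such size can therefore be missed. Figures used matplotlib 3.10.9 and Python 3.11.15. The number of arrays limits the precision.

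Same-numbered arrays deviated together from their groups (correlations 0.53, 0.49, 0.50 and 0.68), and the series describes independent experiments. The numbers were therefore taken as pairs, though the labels do not state a pairing. From each list of related genes up to 4 called members were named, or the 2 with the smallest p; for the members' mean, Fos, Jun and Egr1 the 5 best correlated genes were named. The members, lists and tests were chosen with earlier results of these data known.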

Additional observations from a re-analysis of the deposited data

Results flagged for a closer look

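Of 26 groups of 4 arrays, 1 for each member probe set and label, in 3 a single array lay apart by Dixon's test at the 95% level, and about 1 in 20 would by chance. Egr1 was lowest on Bmi1 1, at 1686, with a gap of 0.875 of the group's range on the log2 scale. Ier3 was lowest on Bmi1 3, at 1184, with a gap of 0.847, and control 3 had the lowest Ier3 of its group as well, at 1395. The dimmer Fosl1 probe set was highest on control 2, at 6.67, with a gap of 0.958, where that array's background was 9.44.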

How the results depend on the processing

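Under 28 other settings, 5 of them chosen after seeing the data, 0 of the 10 members passed in limma, and the interaction gave 0 of 10 under its 3 other settings. Fos and Dusp1 stayed below 0 in every setting run, from -0.31 to -0.0092 and from -0.47 to -0.16. The lowest adjusted p of any member was 0.107, for Dusp1 with the replicate block without pair 1. The replicate block changed no call among the members; among all genes it called 363, against 18 without it, and 1 gene each more in the lists of other immediate early genes, AP-1 partners and AP-1 targets.

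Counts over all genes moved further. They were 198 with replicates 1 and 2 against 3 and 4 as a block, 0 with replicates 1 and 2 or 3 and 4 only, 30 at 4 times the pseudocount, 0 at the 60th percentile, 28 without centring, 7 with quantile normalisation, 37 with array weights, 4 with every probe set tested by itself and 409 with the replicate block on those. The replicate block without pair 1, 2, 3 or 4 gave 187, 140, 94 and 207, and leaving out 1 array gave 0 to 20. Where a count was 0, limma found 442 to 1012 genes at an unadjusted p under 0.05.

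Signs turned for 8 members. With replicates 1 and 2 only Jun was -0.30; with replicates 3 and 4 only Fosl1 was -0.22, Junb -0.11, Egr1 0.015 and Ier2 0.094. Ier2 was 0.0064 without centring, 0.066 with centring on all probe sets and 0.024 with quantile normalisation. With array weights Fosb was 0.15, Fosl2 0.25, Junb -0.067 and Ier3 0.057. With the replicate block, Fosl1 was -0.039, Junb -0.024 and Ier2 0.021 without pair 1, Fosl1 -0.090 without pair 2 and Jun -0.19 without pair 3. Leaving out 1 array gave -0.85 to -0.14 for Fosb, -0.36 to -0.013 for Ier3, -0.13 to 0.19 for Fosl1, -0.59 to 0.031 for Fosl2, -0.17 to 0.19 for Jun, -0.13 to 0.38 for Junb and -0.19 to 0.11 for Ier2. The cause was not tested. The median difference of all genes was 0.11 when all probe sets set the centre. Fosb and Fosl1 fell under the 60th percentile, and Fosl1 under the level filter when probe sets were averaged.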
